A study of Mus musculus with 10 samples.

Results

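The genes described here encode the proteins of the mitochondrial ribosome. They were taken as every gene whose name on the array begins with Mrpl or Mrps and a number, each represented by its brightest probe, and they number 75 of 28095 gene names. By name, 46 belong to the large subunit (Mrpl) and 29 to the small subunit (Mrps). Background knowledge places 45 of them as homologues of bacterial ribosomal proteins and 29 as proteins that the mitochondrial ribosome gained. Mrps36 carries the name but belongs to the 2-oxoglutarate dehydrogenase complex. A few names also mislead about the subunit, since the proteins of Mrps30 and Mrps18a sit in the large subunit.

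Mitochondria carry ribosomes of their own, which translate a small set of messages transcribed from mitochondrial DNA into core subunits of the respiratory chain and of ATP synthase. The proteins of these ribosomes are encoded in the nucleus, made on cytosolic ribosomes and imported. In the intestinal epithelium, stem cells and dividing progenitors at the crypt base give rise to differentiated cells, and mitochondrial content and activity vary along that path. Lgr4 and Lgr5 are receptors for R-spondin, a secreted protein that strengthens Wnt signalling and sustains crypt stem cells.

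The data come from 10 Agilent mouse arrays, each with a red (Cy5) and a green (Cy3) channel. In the crypt comparison, crypts isolated from the small intestine of Lgr4 fl/fl Lgr5 fl/fl mice carrying an inducible P450Cre (AhCre) were hybridised together with wt control crypts, 1 day after deletion, as 2 biological replicates on 4 arrays with dyes swapped. In the organoid comparison, 2 cultures from VillinCre Lgr4 fl/fl Lgr5 fl/fl mice were set against 2 cultures from VillinCre wt mice, for which the labels also give tamoxifen induction for 1 day. In the withdrawal comparison, 1 culture kept without R-spondin (EGF and Noggin medium) was set against 1 culture kept with it, both for 1 day after splitting. Organoid RNA was labelled with Cy5, and the Cy3 channel held a reference RNA from mouse (Stratagene). Villin drives Cre throughout the intestinal epithelium. The AhCre transgene answers to a xenobiotic inducer, and whether wt mice received it is not given in the sources used here. Whether replicate cultures came from separate animals is not stated either, so p-values measure the spread between these samples.

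As a check of the deletion, the log2 ratio of deleted over wild type crypts in replicates 1 and 2 was -1.51 and -1.61 for Lgr4 and -1.89 and -1.48 for Lgr5. Both missed the threshold in limma (adjusted p 0.0888 for Lgr4 and 0.0880 for Lgr5). Deleted organoids had log2 Cy5 signals of 7.33 and 8.16 for Lgr4, against 11.00 and 11.63 in wild type organoids (adjusted p 0.106 in limma). For Lgr5 they had 6.15 and 6.29, against 9.94 in the 1 wild type culture with a usable spot. Without R-spondin the Lgr5 difference was -5.08 and that of Lgr4 -0.01 (log2, without minus with). On the 4 organoid deletion arrays the Cy3 reference channel was largely unusable: 3.66% to 4.26% of gene probe spots were above background, against 46.9% to 50.7% in Cy5. Cy5 alone is therefore the main measure for these arrays and the ratio to the reference is given beside it. Immune cell markers were higher in deleted crypts (median of 11 measured markers 1.78, range 0.18 to 2.46), stem cell markers lower (median -1.03 over 8 markers, all below 0) and enterocyte markers higher (median 0.61 over 9 markers, all above 0), none of them at an adjusted p of 0.05. Paneth cell markers were below 0 for all 6 measured (median -1.08) and stromal and muscle markers for 5 of 6 (median -0.45). The 2 measured erythroid markers had medians of 2.13 and 1.66 on the arrays of replicate 1, and 0.11 and 0.07 on those of replicate 2. Epithelial markers had a median of -0.18 over 9 genes. Their part in the crypt values below was not tested. In bulk RNA, fewer cells of a type and less RNA per cell cannot be told apart.

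All 75 genes were well above background in crypts, in deletion organoids and in withdrawal organoids, where 44.2%, 49.6% and 65.5% of all gene names were. They lie on 17 chromosomes, with 10 on chromosome 11 and 8 on chromosome 17. Between 68 and 72 gave a value in a given comparison, since the others had a spot marked as an outlier by the scanner software. The genes without a value were Mrpl12, Mrpl14 and Mrps31 in crypts, Mrpl10, Mrpl23 and Mrpl34 in deletion organoids, and Mrpl13, Mrpl23, Mrpl24, Mrpl46, Mrpl48, Mrpl54 and Mrps27 in withdrawal.

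RefSeq promoter windows (GRCm38.p6, 250 bases before to 50 after the transcription start) were matched for 66 of the 75 genes, 72 windows in all. Their median GC content was 58.5%, against 52.7% over 32851 windows of all genes. Motifs of 3 factors that background knowledge links to nuclear genes for mitochondrial proteins or to growth were searched on both strands: CCGGAAG, a core bound by ETS factors such as GABP, the palindromic motif of nuclear respiratory factor NRF-1, and CACGTG, the E-box bound by Myc. CCGGAAG stood in the windows of 24 of the 66 genes (36.4%), against 9.93% of 27025 genes. The NRF-1 motif stood in 3 (4.55%, against 1.07%) and CACGTG in 5 (7.58%, against 8.09%). The 3 motifs share no overlap with each other in the windows printed here. A match describes the letters only.

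The windows below are shown because values given later turn on these genes. Capitals mark a motif, and a window with no capitals holds none of the 3 in its exact form. Mrps14 (chr1:160194965-160195264, + strand) and Mrps9 (chr1:42850983-42851282, + strand) were on the low side in all 3 comparisons, with organoids read by Cy5. Mrps18b (chr17:35916391-35916690, - strand) was on the high side in crypts and in organoids by Cy5 and holds CCGGAAG, read on the opposite strand. Mrpl9 (chr3:94443086-94443385, + strand) had the highest difference in withdrawal and holds the NRF-1 motif.
Mrps14: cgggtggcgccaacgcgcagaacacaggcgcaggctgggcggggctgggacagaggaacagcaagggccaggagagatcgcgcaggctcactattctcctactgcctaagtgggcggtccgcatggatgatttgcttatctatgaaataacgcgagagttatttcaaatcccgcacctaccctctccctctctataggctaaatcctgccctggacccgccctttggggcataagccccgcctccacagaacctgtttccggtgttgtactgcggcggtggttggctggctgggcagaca
Mrps9: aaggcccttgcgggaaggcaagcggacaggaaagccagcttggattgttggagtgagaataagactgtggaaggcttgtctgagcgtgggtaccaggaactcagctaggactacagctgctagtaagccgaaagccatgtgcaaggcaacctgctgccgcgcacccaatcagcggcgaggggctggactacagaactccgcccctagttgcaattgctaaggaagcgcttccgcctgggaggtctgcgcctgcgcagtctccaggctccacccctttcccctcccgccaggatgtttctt
Mrps18b: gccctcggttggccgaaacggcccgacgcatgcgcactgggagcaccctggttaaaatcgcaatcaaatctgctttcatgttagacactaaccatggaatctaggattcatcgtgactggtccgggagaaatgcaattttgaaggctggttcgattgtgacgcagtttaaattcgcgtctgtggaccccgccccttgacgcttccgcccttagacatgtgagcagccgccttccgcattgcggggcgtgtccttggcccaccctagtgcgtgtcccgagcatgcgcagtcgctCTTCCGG
Mrpl9: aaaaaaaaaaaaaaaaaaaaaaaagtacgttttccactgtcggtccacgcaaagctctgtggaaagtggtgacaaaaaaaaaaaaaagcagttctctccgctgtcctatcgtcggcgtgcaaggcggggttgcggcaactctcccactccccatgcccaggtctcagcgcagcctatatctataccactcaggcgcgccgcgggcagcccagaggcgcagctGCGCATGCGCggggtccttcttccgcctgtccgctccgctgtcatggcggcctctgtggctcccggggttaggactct

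Among the matched genes, 23 have a window that overlaps the window of a gene on the opposite strand. The share over all genes was not counted. In 1 such overlap both genes encode mitochondrial ribosomal proteins. Mrpl46 (chr7:78783040-78783339, - strand) and Mrps11 (chr7:78782881-78783180, + strand) point away from each other and their windows share 141 bases, printed here once from each strand. Mrpl46 encodes a protein particular to the mitochondrial large subunit, and Mrps11 a small subunit protein with a bacterial homologue.
Mrpl46: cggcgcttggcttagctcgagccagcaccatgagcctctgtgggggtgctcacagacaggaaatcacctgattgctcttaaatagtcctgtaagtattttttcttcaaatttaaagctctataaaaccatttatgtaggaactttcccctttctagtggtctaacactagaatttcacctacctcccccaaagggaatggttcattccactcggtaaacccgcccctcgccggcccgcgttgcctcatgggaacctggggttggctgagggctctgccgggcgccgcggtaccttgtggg
Mrps11: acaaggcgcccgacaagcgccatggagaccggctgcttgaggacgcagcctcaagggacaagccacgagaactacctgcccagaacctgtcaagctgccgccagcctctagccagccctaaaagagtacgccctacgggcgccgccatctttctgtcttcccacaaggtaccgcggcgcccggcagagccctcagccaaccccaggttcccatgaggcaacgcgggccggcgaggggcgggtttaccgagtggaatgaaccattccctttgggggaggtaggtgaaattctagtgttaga

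In crypts the genes stayed close to the centre of the array after deletion of Lgr4 and Lgr5. The median log2 ratio of deleted over wild type over the 72 measured genes was -0.04, against -0.02 over all 12202 genes tested (0.17 and 0.15 with median centring in place of loess). It was -0.02 in replicate 1 and -0.10 in replicate 2. The quartiles were -0.24 and 0.13, against -0.29 and 0.22 for all genes. None of the 72 passed limma's moderated test at an adjusted p of 0.05 (lowest adjusted p 0.37, for Mrpl23), and none had an unadjusted p under 0.05. Among all genes 0.0492% were called higher and 0% lower. Lower in both replicates were 27 of the 72, against 33.1% of all genes, and higher in both were 18, against 30.1%. Median centring in place of loess gave 4 lower and 27 higher, against 18.6% and 38.8% of all genes, and the 48 genes usable on all 4 arrays gave 17 lower and 13 higher, against 33.2% and 30.7%. Below 0 on average were 42 of 72, or 58.3%, against 52.5% of all genes. By subunit the median was -0.10 for 44 large subunit genes and 0.00 for 28 small subunit genes, and by origin it was -0.10 for 43 bacterial homologues and -0.03 for 28 genes particular to mitochondria.

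**Figure D1:**
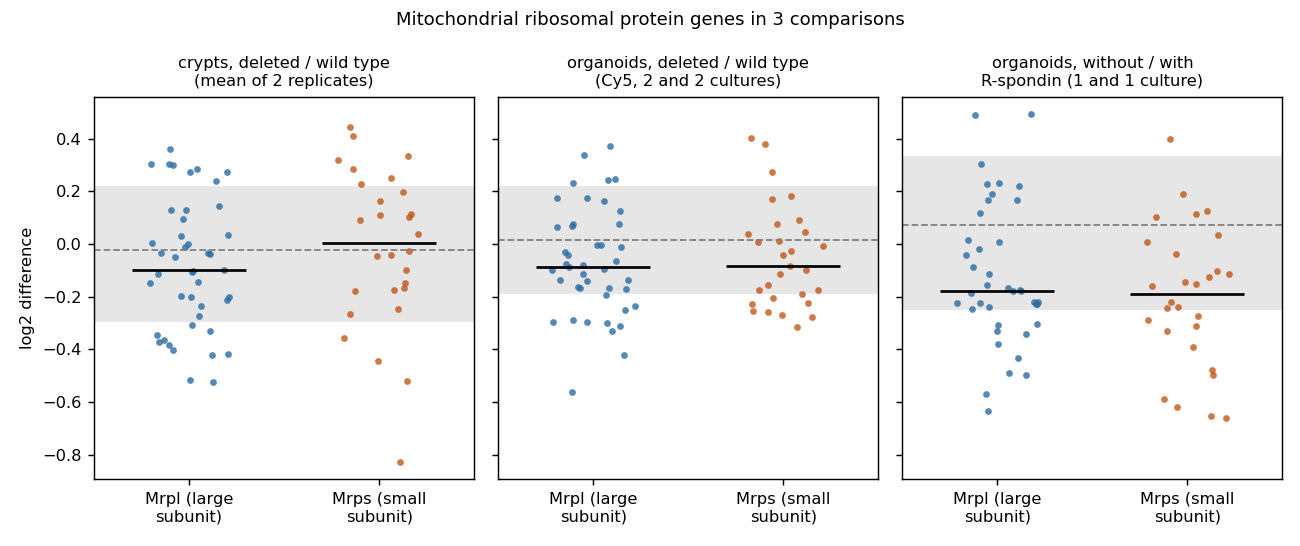
Each point is 1 gene, split by subunit name; the vertical axis is the log2 difference (deleted over wild type, or without over with R-spondin), the black bar the median of the subunit, the dashed line the median of all genes and the grey band lies between their quartiles. Points spread on both sides of 0 in the crypt panel and lie mostly below the dashed line in the withdrawal panel, where 49 of 68 are below 0.

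Among genes that moved one way in both crypt replicates, Mrps14, a small subunit protein with a bacterial homologue, had the lowest mean. Its arrays read -0.23 and -0.02 in replicate 1 and -1.59 and -1.47 in replicate 2, with a mean of -0.83 ± 0.36 (SE, n = 2) and an adjusted p of 0.38 in limma. Replicate 2 was far below replicate 1, so the mean rests on replicate 2. Mrps33, particular to the mitochondrial small subunit, had the same shape, with -0.12 and -0.24 in replicate 1 and -0.88 and -0.85 in replicate 2. Mrpl23, of the large subunit, was even across replicates: the 1 usable array of replicate 1 read -0.51, and replicate 2 read -0.66 and -0.42 (mean -0.52 ± 0.22 SE). Mrps9 read -0.56 on the 1 usable array of replicate 1, and -0.21 and -0.43 in replicate 2. Mrpl46 read -0.26 on 1 array of replicate 1, and -0.42 and -0.75 in replicate 2, while its head-to-head neighbour Mrps11, picked out after its values had been seen, averaged 0.11, with replicates at -0.11 and 0.33. Mrpl1, picked out likewise, had a mean of -0.52 but is not counted with these, since replicate 1 averaged 0.15 and replicate 2 -1.18.

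On the high side, Mrps7, of the small subunit, read 0.34 and -0.13 in replicate 1 and 0.86 and 0.70 in replicate 2 (mean 0.44 ± 0.26 SE, adjusted p 0.49 in limma). Mrps18b, 1 of a family of proteins related to bacterial S18, was above 0 on all 4 arrays, with 0.55, 0.13, 0.45 and 0.51 (mean 0.41 ± 0.22 SE). Only this gene among the 5 highest was on the same side on all 4 arrays with both pairs usable. Mrpl4, a large subunit protein, read 1.15 and -0.26 on the swapped arrays of replicate 1 and 0.25 and 0.30 in replicate 2. Mrps27, particular to the mitochondrial small subunit, likewise read 0.78 and -0.44 in replicate 1 and 0.42 and 0.52 in replicate 2. Mrps10 read 0.49 on 1 array of replicate 1, and 0.01 and 0.35 in replicate 2.

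Swapped arrays of replicate 1 did not order these genes alike. Over the 48 genes usable on all 4 arrays, Pearson's correlation between the arrays of a pair was -0.42 in replicate 1 and 0.89 in replicate 2, and it was 0.17 between the replicate means; over 10030 genes of the whole array the same 3 values were 0.36, 0.92 and 0.46. These points share arrays and dyes and are given as a description. The median gap between swapped arrays was 0.41 in replicate 1 and 0.14 in replicate 2, whereas the median size of a change was 0.20.

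**Figure D2:**
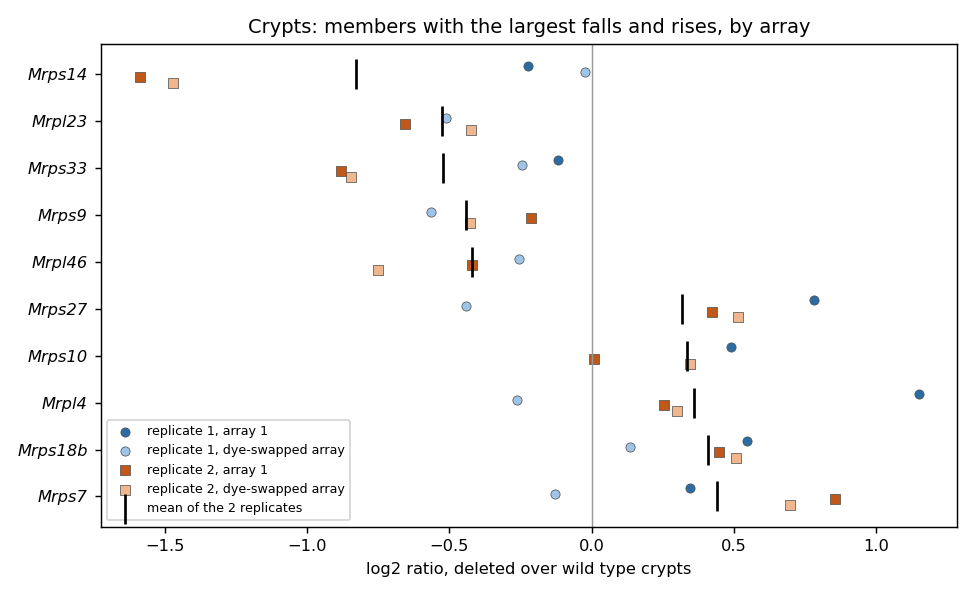
The 10 genes with the lowest and highest mean log2 ratio of deleted over wild type crypts among those that moved one way in both replicates, with a point per usable array and a bar at the mean. Mrps14 and Mrps33 have replicate 2 far to the left of replicate 1, and Mrps18b has all 4 arrays to the right of 0.

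In organoids by Cy5 the same genes lay slightly below the centre on average after deletion. Within slides their median was below 0 only on the slide that held the first culture of each group. The median difference of deleted minus wild type over 72 genes was -0.08 on the log2 scale, against 0.02 over 13319 genes. Below 0 were 48 of 72, or 66.7%, against 47.5% of all genes. The 2 slides, each with 1 deleted and 1 wild type culture, did not give the same value: the median was -0.17 within slide 1 and 0.02 within slide 2. It was also above 0, at 0.014 with 75th percentile scaling, at 0.0090 with the scanner software's processed signals and at 0.012 without deleted culture 1, and it was -0.17 without deleted culture 2. The all-gene medians of each slide and setting are not given here, so these values are read against 0 only. None passed limma's test at an adjusted p of 0.05 (lowest 0.70, for Mrpl19) and none had an unadjusted p under 0.05, with 0.03% of all genes called higher and 0.00751% lower. Both deleted cultures lay below both wild type cultures for 14 genes, against 18.5% of all genes, and above for 6, against 18.2%. These counts turned over with the processing: processed signals gave 3 lower and 10 higher, against 17.9% and 20.1% of all genes, and 75th percentile scaling gave 7 lower and 12 higher, against 18% and 18.4%. With the slide as a block none of the 72 was called and 1 had an unadjusted p under 0.05, while 337 of all genes were called, against 5 without it. Of the 14, 11 were bacterial homologues, among 42 measured, and 3 were particular to mitochondria, among 29 measured. The genes below without overlap by the ratio, given next, did not show that split. There, bacterial homologues and genes particular to mitochondria were equal in number. Only Mrpl16, Mrpl19, Mrps9 and Mrps30 lay below without overlap by both measures. By the ratio to the reference RNA the median was -0.06 over 70 genes, against 0.03 over all genes, again with none called and none at an unadjusted p under 0.05 (0% of all genes called higher and 0% lower). By that measure 14 lay below without overlap, against 13.5% of all genes, and 3 above, against 20%. That too turned over: processed signals gave 0 lower and 7 higher, against 2.39% and 19% of all genes, at a median of 0.18 (0.17 for all genes), and the deposited series matrix gave 0 lower and 7 higher at a median of 0.17 (0.16 for all genes).

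Mrpl19, a large subunit protein with a bacterial homologue, had log2 Cy5 signals of 10.51 and 10.69 in deleted organoids, against 11.46 and 10.87 in wild type organoids. The groups did not overlap, but the gap was mostly that of slide 1 (-0.95 within slide 1 and -0.18 within slide 2). The mean difference was -0.56 ± 0.27 (limma's moderated SE, 2 cultures each). Mrpl40, particular to the mitochondrial large subunit, had 11.94 and 12.30 in deleted organoids, against 12.35 and 12.55 in wild type organoids. Mrps14 had 11.32 and 11.39 in deleted organoids, against 11.80 and 11.54 in wild type organoids. The differences were -0.33 ± 0.24 and -0.32 ± 0.22 (SE), and neither passed the test. Mrpl16 had 11.66 and 12.003 in deleted organoids, against 12.10 and 12.18 in wild type organoids, and Mrpl18, which is known to take part in bringing 5S rRNA into mitochondria in human cells, had 12.77 and 13.00 in deleted organoids, against 13.32 and 13.04 in wild type organoids. By the ratio to the reference RNA the differences were -0.49 for Mrpl19, -0.25 for Mrpl16, -0.16 for Mrpl18 and -0.04 for Mrpl40, but 0.14 for Mrps14.

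Mrps21, a small subunit protein with a bacterial homologue, was the highest of the genes without overlap. It had 10.96 and 10.91 in deleted organoids, against 10.57 and 10.503 in wild type organoids, and its replicates were close in each group (0.40 ± 0.21 SE, adjusted p 0.71 in limma). Mrps23 had 9.70 and 10.02 in deleted organoids, against 9.33 and 9.63 in wild type organoids, with the same difference on each slide (0.37 and 0.39). Mrps18b had 8.42 and 8.66 in deleted organoids, against 8.41 and 8.12 in wild type organoids, so that its slide 1 cultures were nearly equal. Mrpl55 had 13.17 and 13.05 in deleted organoids, against 12.95 and 12.77 in wild type organoids. Mrpl14 had 14.35 and 14.55 in deleted organoids, against 14.10 and 14.31 in wild type organoids. By the ratio Mrpl14 differed by 0.11 and Mrps21 by 0.01, whereas Mrps23, Mrpl55 and Mrps18b lay below 0, at -0.06, -0.13 and -1.23, so the high side of these genes rests on Cy5.

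**Figure D3:**
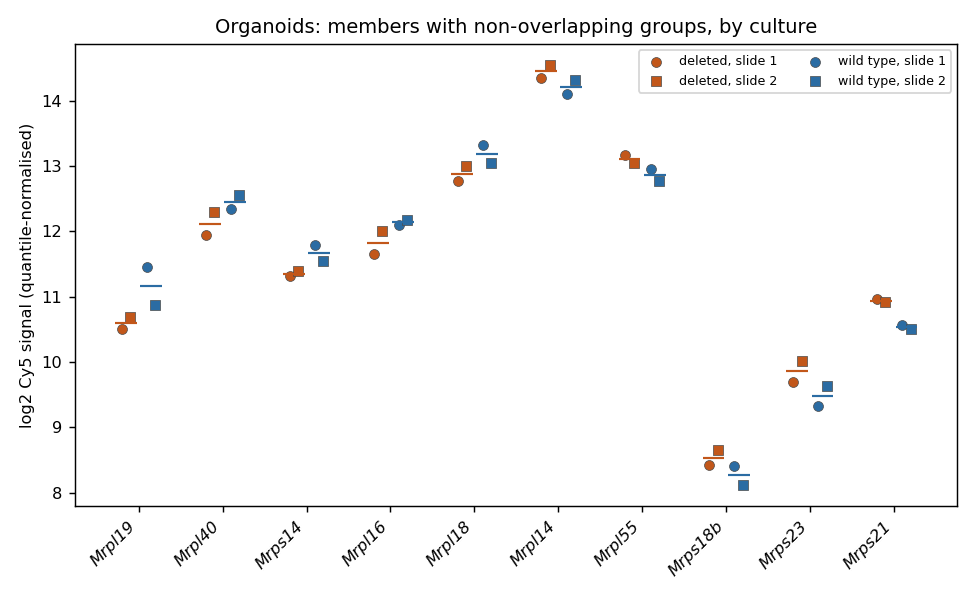
Log2 Cy5 signal of the 5 lowest and 5 highest differences among genes whose deleted and wild type cultures did not overlap; orange symbols are deleted and blue symbols wild type cultures, circles slide 1 and squares slide 2, with a bar at each group mean. The 2 Mrps21 groups are the tightest, while the Mrpl19 gap comes mainly from the wild type culture of slide 1.

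The ratio and Cy5 gave different values for 3 genes by more than 1 log2 unit, and these were picked out after their values had been seen. Mrps27 had ratios of -0.92 and -0.85 in deleted organoids, against -0.84 and 5.23 in wild type organoids, and 8.20 and 8.96 by Cy5 in deleted organoids, against 8.22 and 8.95 in wild type organoids. The ratio difference of -3.08 therefore came from 1 wild type array and was -0.01 by Cy5. Without wild type culture 1 the ratio difference was -6.12 at an adjusted p of 0.0052 in limma, the single call of a mitochondrial ribosomal gene under any alternative. Mrps7 differed by 1.53 by ratio and -0.18 by Cy5, and Mrps18b by -1.23 by ratio and 0.27 by Cy5. Over the 70 genes with both measures the sign was the same for 44.

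Most of the genes were lower without R-spondin, each by little. The median log2 difference of the culture without minus the culture with R-spondin was -0.18 over 68 genes, against 0.07 over 17178 genes. Below 0 were 49 of 68, or 72.1%, against 42.4% of all genes. With 1 culture a group there is no replicate check and no test. Lower by over 1.5-fold were 5 genes, against 12.9% of all genes, and none was higher by over 1.5-fold, against 12.5%. With median centring in place of loess none was lower by over 1.5-fold and the median was -0.060, against 0.10 for all genes. The share of all genes past 1.5-fold under that setting is not given here. The median was close for both subunits, at -0.18 for 40 large subunit genes and -0.19 for 28 small subunit genes, and near it by origin, at -0.18 for 42 bacterial homologues and -0.22 for 25 genes particular to mitochondria. By Cy5 alone the median of 73 genes was -0.25, with 60 below 0, against 44.5% of all genes. Lower by over 1.5-fold were 8, against 14.2% of all genes, and 1, Mrpl9, was higher, against 13.6%.

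The 5 genes past 1.5-fold, against 12.9% of all genes, were Mrps9, Mrps5, Mrpl3, Mrps22 and Mrps25. Mrps9, a bacterial homologue in the small subunit head, had a log2 ratio to the reference RNA of -0.47 without R-spondin, against 0.20 with it, a difference of -0.66. Mrps5 had 0.57 without, against 1.22 with R-spondin, and Mrpl3, a large subunit protein, -0.71 without, against -0.08 with R-spondin. Mrps22 and Mrps25, both particular to mitochondria, differed by -0.62 and -0.59. The difference of Mrpl40, just inside the 1.5-fold limit, was -0.57. The same 5 genes read -0.70, -0.73, -0.84, -0.45 and -0.47 by Cy5 alone, so Mrps22 and Mrps25 did not pass 1.5-fold by that measure. By ratio, another detected probe read -0.02 for Mrps9, -0.20 for Mrps5, -0.16 for Mrpl3 and -0.18 for Mrps25. The size of these falls therefore depends on the probe. MRPS22 is known in human families as a gene whose loss impairs mitochondrial translation.

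The highest differences were smaller. Mrpl9 had a log2 ratio of 1.35 without, against 0.85 with R-spondin (difference 0.49), and Mrpl27 had 0.36 without, against -0.13 with R-spondin (difference 0.49). Mrps36, the member of the 2-oxoglutarate dehydrogenase complex, had 0.42 without, against 0.02 with R-spondin. Mrpl35 differed by 0.30 and Mrpl34 by 0.23. All 5 were above 0 by Cy5 alone too, at 0.64, 0.14, 0.25, 0.16 and 0.17. Mrpl35 is uncertain, because another of its probes read -0.44.

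**Figure D4:**
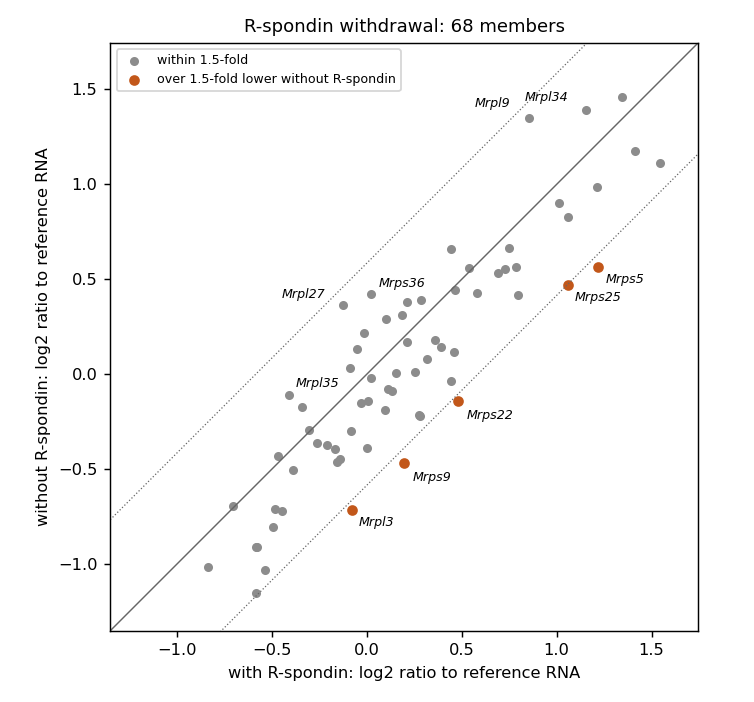
Log2 ratio to the reference RNA of 68 genes in the culture without R-spondin (vertical) and with it (horizontal), 1 culture each; the solid line is equality and the dotted lines 1.5-fold. Most points lie below the line, 5 of them (orange) past the lower dotted line, and none past the upper one.

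Relative to the mouse reference RNA, a pool of other sources, 31 of the 68 genes were higher in both withdrawal organoid cultures, 22 lower in both and 15 mixed. The genes at both ends were picked out after their values had been seen. Mrps31, which had the highest mean, read 1.46 without and 1.35 with R-spondin, and Mrpl52 read 1.11 without and 1.55 with it. Mrpl33 read -1.02 without and -0.84 with R-spondin, and Mrpl40 read -1.15 without and -0.58 with it. The median gene stood at 0.01 without and 0.14 with R-spondin, against 0.10 and 0.06 for all genes.

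Across the 3 comparisons, 63 genes had a value in each, with organoids read by Cy5. Lower on average in all 3 were 24, or 38.1%, against 22.7% of 10802 genes, and higher in all 3 were 2, or 3.17%, against 24.7%. The 3 comparisons share no samples. Lower in both crypt replicates, without overlap in organoids by Cy5 and lower without R-spondin were 7 genes, or 11.1%, against 7.99% of all genes, and the same rule in the other direction gave 0, against 7.52%. The 7 were Mrpl11, Mrpl19, Mrpl40, Mrps9, Mrps14, Mrps17 and Mrps30, named after their values had been seen. By the ratio to the reference RNA, 3 of these (Mrpl19, Mrps9 and Mrps30) lay below without overlap in organoids, and Mrps14 was above 0, at 0.14. With organoids read by ratio, the same rule gave 6 of 61 genes lower, or 9.84%, against 5.4% of all genes. It gave 1 higher, or 1.64%, against 5.88%. The organoid counts behind the rule turned over with the processing, as given above. Mrps9 differed by -0.44 in crypts, by -0.26 in organoids by Cy5 and by -0.66 in withdrawal, and Mrps30 by -0.25, -0.22 and -0.48. Mrps30 was below 0 on all 4 crypt arrays (-0.19, -0.33, -0.37 and -0.11) and had 12.07 and 12.22 in deleted organoids, against 12.29 and 12.45 in wild type organoids. Mrpl40 was -0.03 in crypts with arrays on both sides of 0, and Mrpl19 was -0.10, so for these genes the crypt value adds little. None of the 7 passed a test in either deletion comparison.

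The crypt and organoid effects were also set against each other gene by gene. None of 69 genes differed between the systems in limma at an adjusted p of 0.05 by Cy5, and 1, Mrps21, had an unadjusted p under 0.05, with -0.36 in crypts and 0.40 in organoids (adjusted p 0.84). By ratio none of 67 differed and none had an unadjusted p under 0.05. Windows with CCGGAAG and without it were compared as medians only. In withdrawal the median was -0.11 for 22 genes with the motif and -0.23 for 39 without. In organoids it was 0.01 for 23 with and -0.13 for 40 without, and in crypts 0.00 for 24 with and -0.15 for 39 without. The ranges overlapped widely. With the motif they were -0.63 to 0.49 in withdrawal, -0.30 to 0.40 in organoids and -0.52 to 0.41 in crypts. Without it they were -0.66 to 0.49, -0.42 to 0.37 and -0.83 to 0.44. Of the 7 genes picked above by the rule over all 3 comparisons, 6 had a window. None of these held any of the 3 motifs in its exact form. At least 1 motif stood in the windows of 31 of the 66 genes and of 17.7% of all genes. The 7 were picked by their values, and a link with the motifs was not tested.

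Genes with several probes give a second reading. Of the 33 such genes, 24 had several detected probes in crypts and the median range between probes of a gene was 0.18. In crypts the probes of Mrpl47 read -0.15 and 0.84, and those of Mrps5 ranged between -0.75 and 0.08. In organoids by Cy5 the lowest and highest probes were -0.17 and 0.37 for Mrpl1, -0.14 and 0.97 for Mrpl15, -0.17 and 0.55 for Mrpl47, and -0.24 and 0.84 for Mrpl50. In withdrawal they were -0.44 and 0.30 for Mrpl35 and -0.38 and 0.18 for Mrpl45. These genes have no settled direction in those comparisons. At any size of gap, probes of both signs were found in 6 of 24 genes in crypts, 11 of 26 in organoids and 5 of 28 in withdrawal. In organoids these included Mrpl40 (-0.33 and 0.05) and Mrpl18 (-0.30 and 0.04), both named above as low.

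Other parts of mitochondrial gene expression were read as lists. The median of 6 mitochondrial ribosome proteins under other names (such as Dap3 and Ptcd3) was -0.07 in crypts (5 measured), -0.18 in organoids (5 measured) and -0.40 in withdrawal. Genes of mitochondrial DNA expression and ribosome assembly, such as Tfam and Polrmt, had medians of -0.13, -0.07 and -0.26 over 32, 30 and 30 genes. Mitochondrial translation factors stood at 0.00, 0.03 and 0.08 over 13, 12 and 13 genes, mitochondrial tRNA synthetases at -0.01, -0.10 and -0.27 over 17 genes each, and import genes at -0.08, -0.06 and -0.16 over 26 genes each. No gene of these 5 lists passed limma's test at an adjusted p of 0.05 in crypts or in organoids by Cy5. At an unadjusted p under 0.05 there were 1 assembly gene, 1 synthetase and 2 import genes in crypts, against 13.7% of all genes, and 1 assembly gene in organoids, against 7.71%.

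The proteins that mitochondrial ribosomes work beside and the cytosolic ribosome stood elsewhere. Nuclear genes of oxidative phosphorylation, whose products join the mitochondrially made subunits, had a median of -0.17 in crypts (65 genes), 0.17 in organoids (66 genes) and 0.31 in withdrawal, where 4 of 62 were below 0. By Cy5 alone the withdrawal median of this list was 0.15, with 18 of 63 below 0. Cytosolic ribosomal protein genes had a median of -0.59 in crypts (59 of 62 below 0), 0.06 in organoids (20 of 53 below 0) and -0.42 in withdrawal (49 of 52 below 0). Cell cycle genes had medians of -0.35, -0.88 and -2.50, over 21, 22 and 18 genes. None of these genes passed limma's test at an adjusted p of 0.05 in crypts or in organoids by Cy5. At an unadjusted p under 0.05 crypts had 28 cytosolic ribosomal genes and 3 cell cycle genes, all lower, and 4 oxidative phosphorylation genes, 2 in each direction, against 6.44% of all genes higher and 7.3% lower. Organoids had 11 cell cycle genes, all lower, and 1 gene of each of the other lists, higher, against 3.48% of all genes higher and 4.23% lower. The differences between lists were not tested. In the crypt arrays the cytosolic list depended on the dye: its median was -0.88 and -0.14 on the swapped arrays of replicate 1 and -1.01 and -0.53 on those of replicate 2, whereas that of the mitochondrial ribosomal genes was 0.03 and -0.03, and -0.05 and -0.11. That of oxidative phosphorylation was -0.23 and 0.19, and -0.40 and -0.14.

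**Figure D5:**
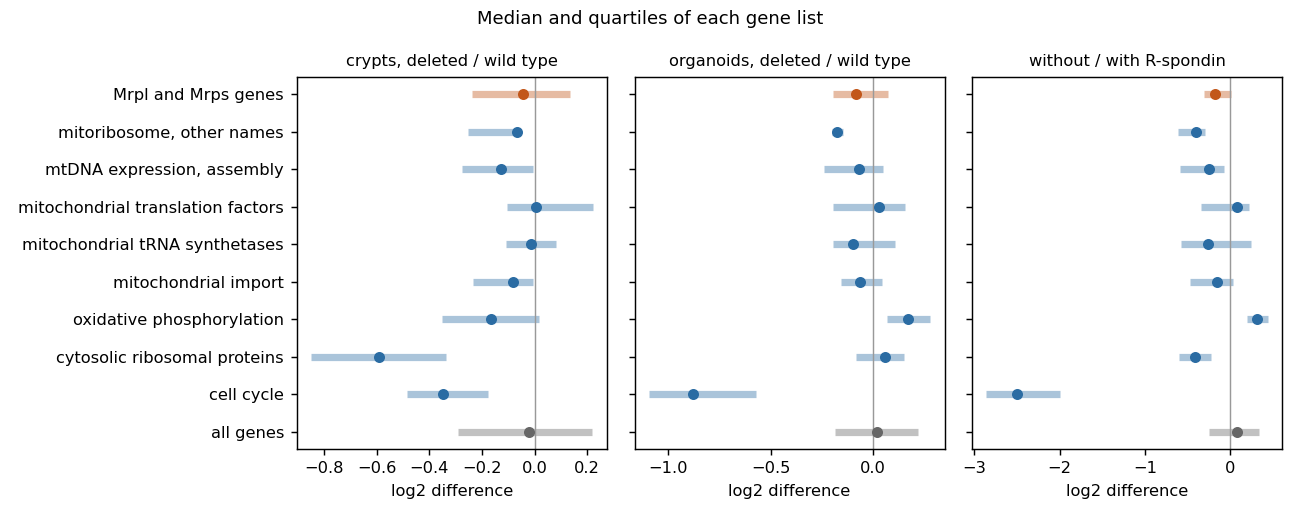
Median (point) and quartiles (bar) of the log2 difference for each gene list in the 3 comparisons; the horizontal scales differ between panels. Mitochondrial ribosomal genes (orange) stay between -0.18 and -0.04, while cytosolic ribosomal genes reach -0.59 in crypts, oxidative phosphorylation genes 0.31 in withdrawal and cell cycle genes -2.50 in withdrawal.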

How the data were processed

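Per the file headers, Agilent Feature Extraction 10.5.1.1 made the scanner files, whereas the submitters' processing notes name 8.5.1.1. The authors deposited raw spot and background intensity values, processed intensity values and a log10 ratio, which the deposited series matrix repeats. Raw intensities were corrected in limma 3.58.1 (R 4.3.3, files read by version 1.17.8 of its data.table package) by normexp with an offset of 50. Spots marked as outliers and control spots were left out. Ratios were normalised by loess within arrays, and Cy5 alone by quantiles between arrays. Loess ratios on the 4 organoid deletion arrays understated known changes that were written into the raw signals as a check. The brightest probe stood for a gene. It entered a test if the scanner software called it well above background throughout at least 1 of the groups compared. Dye-swapped arrays were averaged to 1 value per replicate. Each ± is limma's moderated SE, which draws partly on the variance of all genes. Limma's p-values are two-sided and adjusted by Benjamini-Hochberg over all genes tested, with a threshold of 0.05. The number of arrays limits the precision. Gene names come from the withdrawal arrays' annotation, promoters from RefSeq.

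The genes, lists, motifs and tests were chosen with earlier results of these data known. Named with values are, per comparison, the 5 lowest and 5 highest genes moving one way in both crypt replicates, or without overlap between organoid groups, or (withdrawal) of all; genes whose probes move oppositely by over 0.5; and Lgr4 and Lgr5. Exceptions are said to have been picked later.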

Additional observations from a re-analysis of the deposited data

How the results depend on the processing

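No gene of the set was called in crypts, or in organoids by Cy5, under any alternative. The crypt median lay between -0.08 and 0.17 over 10 alternatives, and above 0 under median centring without loess alone (0.17, with 4 genes lower in both replicates, all genes 18.6%), where all genes moved to 0.15. With members usable on all 4 crypt arrays, added after seeing the data, 17 were lower in both replicates (all genes 33.2%). In organoids by Cy5 the median rested on the processing: it was 0.0090 with the scanner software's processed signals (3 without overlap lower and 10 higher, all genes 17.9% and 20.1%), 0.014 with 75th percentile scaling (7 and 12, all genes 18% and 18.4%), -0.030 with the mean of all probes, -0.17 within slide 1 and 0.017 within slide 2. Leaving out a culture gave medians of -0.17 to 0.012 (0.012 without deleted culture 1, -0.17 without deleted culture 2). As above, these Cy5 medians are read against 0 only. By ratio the median was 0.18 with processed signals (0 lower and 7 higher, all genes 2.39% and 19%), 0.17 with the series matrix (0 and 7, all genes 2.59% and 19.4%) and 0.070 with median centring (3 and 6, all genes 12.6% and 24%), where all genes stood at 0.17, 0.16 and 0.08; marked spots kept gave 5 lower and 12 higher (all genes 12.3% and 20.3%), and the mean of all probes 6 higher (20.8%). Leaving out cultures gave 0 to 1 called lower, and counts without overlap were not compared there or within slides. By ratio Mrps27 read 0.21 and Mrps18b 0.26 with processed signals, and 0.21 and 0.26 with the series matrix; Mrps18b read 0.30 within slide 1, and Mrps7 read -0.091 with marked spots kept, and between -0.65 (without deleted replicate 1) and 3.70 (without deleted replicate 2) with a culture left out. In withdrawal the median stayed below 0 under all 8 alternatives (-0.25 to -0.060). Among these the 2-fold limit changes the counts only, so its median could not differ. The median was -0.060 with median centring (0 lower and 1 higher by over 1.5-fold, all genes at 0.10). The mean of all probes left 1 gene lower by over 1.5-fold and put Mrpl35 at -0.036, and a 2-fold limit gave 0 lower. For these 2 settings and for median centring the shares of all genes past the limit are not given here. Their counts are therefore not set against the array. Cy5 alone gave 8 lower and 1 higher, against 14.2% and 13.6% of all genes. The cause of these changes was not tested. Each crypt array carries its own pair. Organoid replicate numbers follow deposit order, but each slide held 1 culture of each group. With the slide as a replicate block the medians (-0.08 by Cy5, -0.06 by ratio) and counts without overlap are therefore the same by design. They could not have moved. No gene of the set was called in that fit, and calls over all genes by Cy5 went up to 337, against 5 without the block. With every replicate kept, calls over all genes ranged over the alternatives between 0 and 626 in crypts (6 as reported), 0 and 337 by Cy5 and 0 and 13 by ratio (0 as reported). With 2 replicates a group, or 1 culture in withdrawal, differences of the size seen here are not resolved gene by gene.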
